A study of Gallus gallus with 3 samples.

Results

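The mitochondrial genome of vertebrates encodes a small set of membrane proteins of the respiratory chain, and 9 of its 13 protein-coding genes are described here in chicken (Gallus gallus) blastoderms. RNA was sequenced from whole embryos at Eyal-Giladi stage X, the flat disc of cells on the yolk at about the time of laying. The 3 libraries, called pools a, b and c after their labels, form 1 group, and each came from 20 to 30 embryos combined before extraction. No treatment, strain or genotype is given, and nothing in the labels tells if they were collected apart, so the spread between them may be technical. The genes are ND1, ND3, ND4, ND5, CYTB, COX1, COX2, COX3 and ATP6, out of 16958 identifiers listed. They were chosen by their place in a stretch of neighbouring Ensembl identifiers that had drawn attention by its high read counts per length (cRPKM) and its excess in pool a, so those levels and that excess are given below as descriptions with no test. The stage was not checked against marker genes, since the files list Ensembl identifiers without symbols.

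Mitochondria make most of a cell's ATP by passing electrons along complexes I, III and IV and using the resulting proton gradient to drive ATP synthase, complex V. Each of these complexes mixes subunits from nuclear genes with core subunits from mitochondrial DNA. In vertebrates all the genes described here are transcribed from the same strand as part of long precursor RNAs. These are cut largely at tRNAs, though not every pair of neighbouring genes has a tRNA between them. The resulting mRNAs carry short poly(A) tails. In early animal embryos, mitochondria and many of their transcripts are inherited from the egg. The TruSeq RNA kit used here selects polyadenylated RNA, so the levels include any difference in tail length or capture between transcripts.

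The names of the genes rest on an assignment made for this work, and the lengths behind the deposited values were compared with it. The deposited level is the cRPKM, an RPKM with the authors' correction, in which reads are scaled to a gene's countable positions and to the counted reads of the library. The positions behind each value, here called the effective length, follow from the gene's reads, its cRPKM and the library's total. This length was 49 below the gene length listed by RefSeq (assembly GRCg7b) for 7 of the 9 genes, and 49 fewer is the number of starting points that a window of 50 bases loses in any gene. ND1 had 926 positions against 975 bases listed, ND4 1329 against 1378, ND5 1769 against 1818 and CYTB 1094 against 1143. COX3 had 735 positions against 784 bases. COX2 and ATP6 are both listed at 684 bases and both had 635 positions, so their lengths cannot tell these names apart. ND3 had 302 positions, 50 below its 352 bases. COX1 had 1479 positions, 72 below its 1551 bases, and the reason for this mismatch was not tested. Its last 9 bases in the reference overlap a tRNA gene. ATP6 and ND4 overlap other genes too, and both were 49 below their listed lengths. A single length identifies little. Among 15717 identifiers with an estimated length, 3 to 6 others had the same rounded value as each of the 9. For COX2 and ATP6 these counts include each other. Only 1033 lengths were known to within 0.05 positions, so some of these matches may be inexact.

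**Figure D1:**
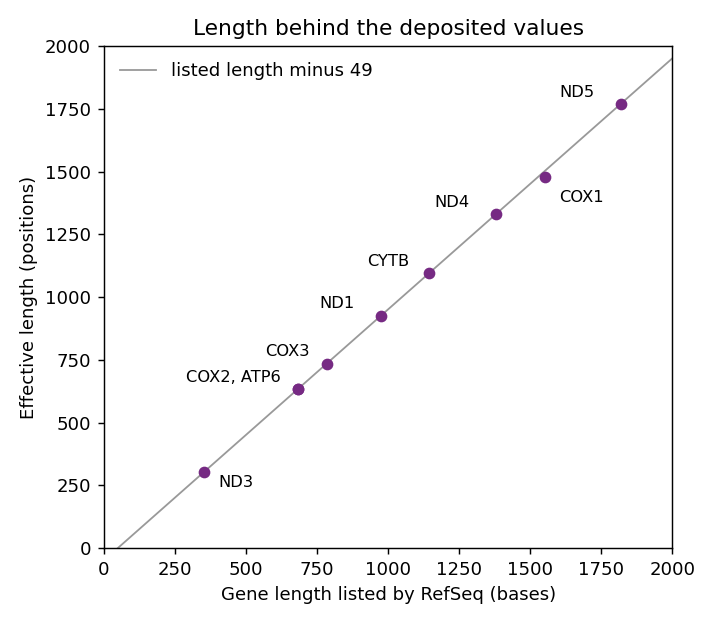
Effective length in positions, worked out from the deposited values, against the gene length in bases listed by RefSeq for each of the 9 genes, with a line at the listed length minus 49. COX1 lies 23 positions below the line and ND3 lies 1 below it, and COX2 and ATP6 share a point at 635 positions.

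All 9 genes were abundant in stage X embryos, and 8 of them were among the 181 genes with a mean of 500 cRPKM or more. Together they took 2.372% of pool a's counted reads, which were 3325529 of 140187132 (95% interval 2.370 to 2.375 by the exact binomial method). In pool b they took 2.001%, or 2711878 of 135502157 (1.999 to 2.004). The share of pool c was the lowest at 1.851%, or 2550814 of 137811639 (1.849 to 1.853). The mean was 2.07% ± 0.27 (SD, n = 3). The intervals cover counting error only and leave out the spread between pools. They treat reads as independent. Reads without molecular identifiers need not be independent molecules, so the intervals may be too narrow even for counting error. Of the summed cRPKM of all genes, which allows for length, the 9 genes held 3.60%, 3.17% and 2.90% in pools a, b and c. In bulk libraries of this kind, a change in the cells that carry a transcript and a change in its amount per cell cannot be told apart.

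Complex I, NADH dehydrogenase, takes electrons from NADH and is represented by 4 genes whose levels spread widely. ND1 (ENSGALG00000018382), a membrane subunit next to the site where ubiquinone is bound, was the most abundant of them, at 3890, 3181 and 3218 cRPKM in pools a, b and c. ND4 (ENSGALG00000018364), one of the subunits related to sodium-proton antiporters that are thought to move protons, stood at 1897, 1548 and 1429 cRPKM in pools a, b and c. ND5 (ENSGALG00000018361), another of these antiporter-like subunits and the longest of the 9 genes, had 1108, 897 and 840 cRPKM in pools a, b and c. Pool a was the highest for all 3, while pools b and c were close for ND1 and further apart for ND4 and ND5.

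ND3 (ENSGALG00000018366), a small membrane subunit of the same complex, was far below the others at 457, 385 and 396 cRPKM in pools a, b and c. It was the only one of the 9 with a mean under 500 cRPKM. By mean level it ranked 214 among all genes, where ND1 ranked 6, ND4 50 and ND5 104. The ratio of ND1 to ND3 was 8.52, 8.25 and 8.12 in pools a, b and c. The difference between these subunits was thus several times larger than any difference between pools. ND3 had 15775 to 19331 reads a pool over its 302 positions, and counting error alone gives its level a coefficient of variation of 0.762%.

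Complex III passes electrons from ubiquinol to cytochrome c, and CYTB (ENSGALG00000018360), its cytochrome b subunit, carries the sites where ubiquinol is bound. Its level was 1807, 1505 and 1347 cRPKM in pools a, b and c, a mean of 1553 ± 233 (SD, n = 3). Pools a, b and c were well separated for this gene, and its ratio of pool a to pool c, 1.34, was the highest of the 9.

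Complex IV, cytochrome c oxidase, hands electrons to oxygen, and its catalytic core comes from the 3 COX genes. COX1 (ENSGALG00000018373), which holds the haem and copper centre where oxygen is reduced, was the most abundant of the 9 genes. It had 5535, 4639 and 4198 cRPKM in pools a, b and c, which ranked it 4 among all genes in each pool. It alone took 0.819%, 0.686% and 0.621% of their reads, and it supplied 33.5% to 34.5% of the reads of the 9 genes. COX2 (ENSGALG00000018370), which holds the copper site that receives electrons from cytochrome c, stood at 3172, 2964 and 2546 cRPKM in pools a, b and c. COX3 (ENSGALG00000018367), a core subunit without a redox centre, had 1697, 1586 and 1441 cRPKM in the same pools. For both, pool b lay nearer to pool a than it did for COX1. The ratio of COX1 to COX3 was 3.03 ± 0.20 and that of COX2 to COX3 was 1.83 ± 0.06 (SD, n = 3).

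Complex V makes ATP, and ATP6 (ENSGALG00000018368) encodes the membrane subunit that forms the path for protons next to the rotating ring. It reached 3269 cRPKM in pool a and stood at 2760 and 2626 in pools b and c, a mean of 2885 ± 340 (SD, n = 3). In the reference its coding sequence overlaps ATP8 by 10 bases and COX3 by 1 base, and ND4 overlaps ND4L by 7. How reads in such overlaps were counted is not given in the sources used here. ATP6 and COX3 are neighbours in the reference order of genes, yet the ratio of ATP6 to COX3 was 1.93, 1.74 and 1.82 in pools a, b and c.

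**Figure D2:**
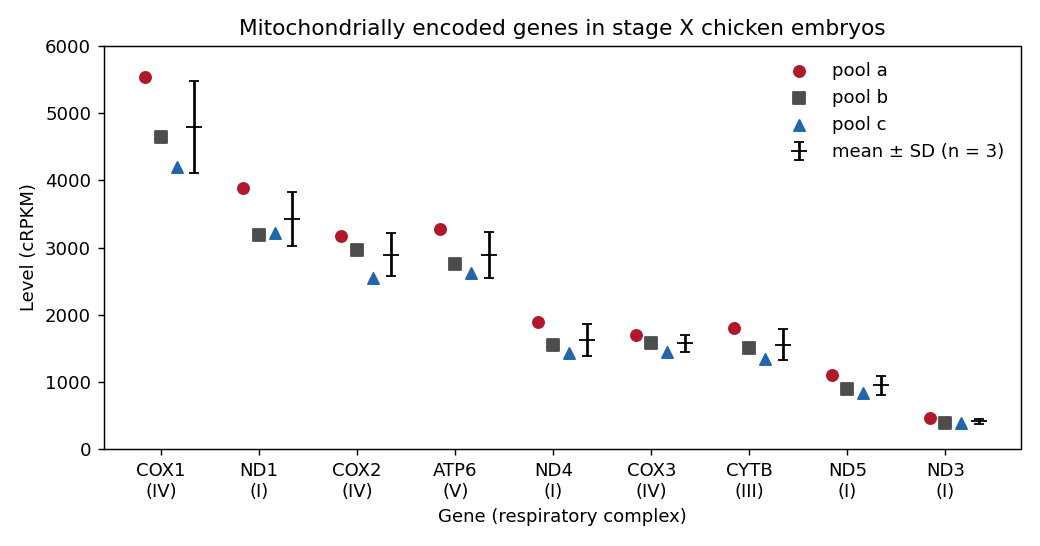
Level in cRPKM (linear axis from 0) of each gene in pools a, b and c, ordered by the mean, with the mean and SD over the 3 pools as a bar beside the points and the complex in brackets. COX1 is the highest at 4198 to 5535 cRPKM, ND3 is the lowest at 385 to 457, and pool a lies above pools b and c for each of the 9 genes.

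By mean level the order was COX1 (4791 cRPKM), ND1 (3430), COX2 (2894), ATP6 (2885), ND4 (1624), COX3 (1575), CYTB (1553), ND5 (948) and ND3 (413). COX1 lay above ND1 in every pool, with a ratio of 1.40 ± 0.08 (SD, n = 3). ND1 lay above COX2 in every pool too, though its lowest value, 3181, barely cleared the highest value of COX2, 3172. COX2 and ATP6 did not differ beyond their spread, with ratios of 0.97, 1.07 and 0.97 in pools a, b and c. ND4, COX3 and CYTB had overlapping ranges. COX3 was the lowest of these genes in pool a and the highest in pools b and c, while ND4 lay slightly above CYTB in each pool, at a ratio of 1.046 ± 0.017 (SD, n = 3). Clear steps separated ATP6 from ND4 (ratio 1.78 ± 0.06), CYTB from ND5 (1.64 ± 0.04) and ND5 from ND3 (2.29 ± 0.16). In the reference genome the 9 genes come in the order ND1, COX1, COX2, ATP6, COX3, ND3, ND4, ND5, CYTB, with other genes left out. The first 4 of these 9 were also the 4 most abundant of them. The level did not fall at every step of that order. It rose from ND1 to COX1, from ND3 to ND4 (ratio of ND4 to ND3 3.92 ± 0.29) and from ND5 to CYTB.

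The proportions between complexes varied less from pool to pool than their levels did. Per gene, complex IV averaged 3468, 3063 and 2728 cRPKM in pools a, b and c, and complex I averaged 1838, 1503 and 1471. The complex I average leaves out ND2, ND4L and ND6, and complex V is represented without ATP8, since these are not among the 9 genes. The ratio of complex IV to complex I was 1.89, 2.04 and 1.86 in the same pools, a mean of 1.93 ± 0.10 (SD, n = 3). Its coefficient of variation was 5.09%, where those of the complex IV and complex I levels were 12.0% and 12.7%. Nothing is read from that difference. The genes come from a stretch that drew attention partly by its excess in pool a, and a shared shift cancels in a ratio. That ratio rests on COX1 and ND3, the highest and the lowest of the genes. It was 1.40 ± 0.10 without COX1 and 1.54 ± 0.08 without ND3. The ratio of ATP6 to the complex I mean was 1.80 ± 0.03, and that of CYTB to the complex I mean was 0.97 ± 0.05. Of the summed cRPKM of the 9 genes, complex IV held 46.0% ± 1.0, complex I 31.9% ± 0.9, complex V 14.4% ± 0.2 and complex III 7.70% ± 0.22 (SD, n = 3 each). These sums compare 3, 4, 1 and 1 genes, so they do not measure the amount of each complex.

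**Figure D3:**
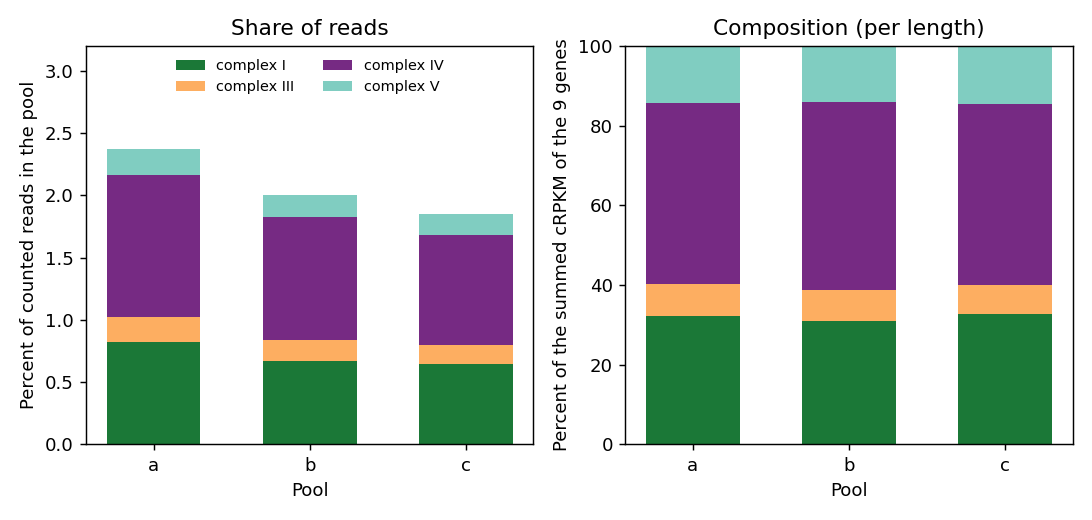
Left, percent of each pool's counted reads that fell on the genes of complexes I, III, IV and V, stacked; right, the same complexes as a percent of the summed cRPKM of the 9 genes. The stacks on the left reach 2.372%, 2.001% and 1.851% in pools a, b and c, while complex IV on the right stays between 45.4% and 47.2%.

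Among the 9 genes, the levels in pool a were shifted in the same direction. All 9 were highest in pool a. Of all genes averaging 1 cRPKM or more, 26.1% were highest in pool a, and of the other 173 genes at 500 cRPKM or more 54.3% were. Since the stretch that holds the genes drew attention partly by its excess in pool a, nothing is read from these counts. Over the 9 genes together, pool a held 1.28 times the share of reads of pool c and 1.19 times that of pool b, while pool b held 1.08 times that of pool c. Single genes ran from 1.15 (ND3) to 1.34 (CYTB) for pool a over pool c, with a median of 1.25. For pool a over pool b they ran from 1.07 (COX3 and COX2) to 1.24 (ND5), with a median of 1.19. The other 173 abundant genes had medians of 1.01 for pool a over pool c and 1.053 for pool a over pool b, and 5 of them come from the same stretch of identifiers. A ratio of 1.1 or more for pool a over pool c was reached by all 9 genes, against 14% of genes averaging 1 cRPKM or more and 7.51% of the other 173 abundant genes. For pool a over pool b, 7 of the 9 genes reached it, against 9.64% and 27.7% of the same sets. COX2 and COX3 were the 2 that did not. Their ratios lay between the quartiles of the other 173 abundant genes, 1.006 and 1.103, and those of the other 7 lay above them. The same excess helped to pick out the stretch that holds the genes, so nothing is read from these ratios and counts either.

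The order of the pools and the size of their differences varied among the genes, and no grouping of the genes was tested. Pool a was highest and pool c lowest for 7 of the 9 genes. That order held for 15.2% of genes with 1 cRPKM or more and for 11% of the other 173 abundant genes, and nothing is read from it. The exceptions were ND1 and ND3, in which pool c lay slightly above pool b, at ratios of pool b to pool c of 0.99 and 0.97. COX2 and COX3 differed least between pools a and b. In pool b they were the only ones of the 9 to lie above their own mean. Their deviations in pool b (log2 cRPKM minus the gene's mean over pools) were 0.04 and 0.01, where the median of the 9 genes was -0.06. ND4, ND5, CYTB and COX1 had closely similar deviations, 0.22 to 0.24 in pool a and -0.19 to -0.17 in pool c. ATP6 and ND1 came next in pool a, at 0.19 each. Differences between these pools helped to pick out the stretch, so nothing is read from these likenesses.

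**Figure D4:**
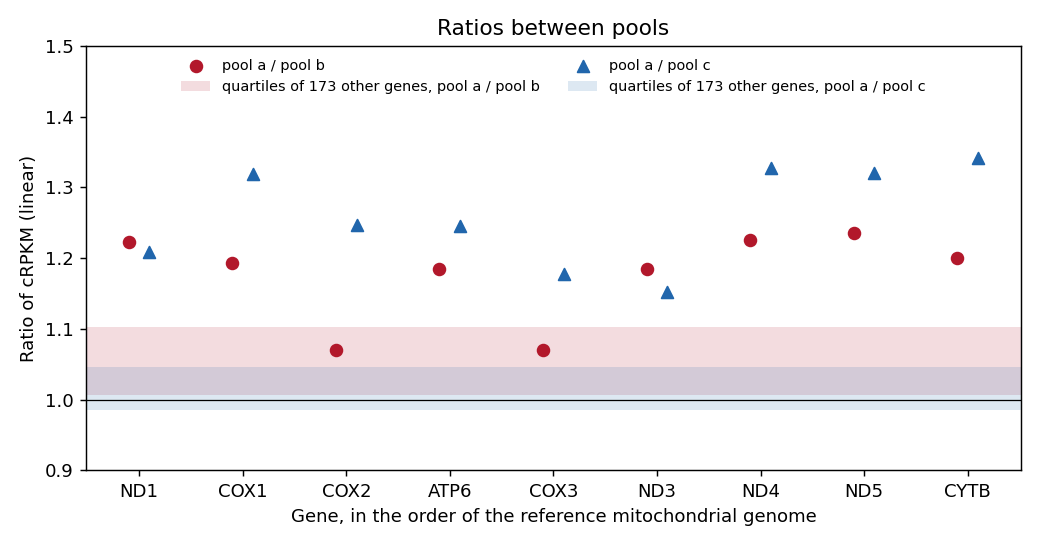
Ratio of cRPKM of pool a to pool b (circles) and of pool a to pool c (triangles) for each gene, on a linear axis, in the order of the reference mitochondrial genome; bands mark the quartiles of the same ratios over 173 other genes with a mean of 500 cRPKM or more. Ratios to pool c run from 1.15 to 1.34. COX2 and COX3 have ratios to pool b of 1.07, inside the band for that ratio.

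Ratios between the genes were steadier than the levels themselves. The coefficient of variation of a gene's cRPKM over the 3 pools ran from 8.17% (COX3) to 15.03% (CYTB), where counting error alone gives 0.101% to 0.762%. For the 36 ratios between pairs of the 9 genes it ran from 0.708% to 9.07% with a median of 5.60%, and 33 of them lay below the steadiest single level. The steadiest ratio was that of ND4 to ND5, at 1.71, 1.73 and 1.70 in pools a, b and c. COX1 to CYTB followed, at 3.06, 3.08 and 3.12, although these genes belong to different complexes. The least steady ratio was that of COX2 to ND3, at 6.95, 7.69 and 6.42. Each ratio rests on 3 pools. A shift shared by the genes cancels in their ratio, and the stretch that holds them drew attention partly by its excess in pool a. For that reason nothing is read from the steadiness of these ratios.

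Other identifiers next to these genes had related lengths, though their names are not paired with them in the sources used here. Within a window of 36 consecutive identifier numbers that holds the 9 genes, 23 other identifiers had reads. Of these, 18 had 16 to 25 positions, each equal to the length of a mitochondrial tRNA in the reference minus 49. The 22 tRNAs listed run from 65 to 76 bases. With so many tRNAs over so narrow a range, most such short lengths could match one, so this equality identifies little. These short genes averaged 26.3 to 638 cRPKM on 65 to 1855 reads a pool, and 10 of the 18 were highest in pool a. The shares highest in pool a given above were 26.1% of genes at 1 cRPKM or more and 54.3% of the abundant ones, and nothing is read from this count. ENSGALG00000018357 had 473 positions, the listed length of ND6 minus 49, and stood at 395, 372 and 360 cRPKM in pools a, b and c. ENSGALG00000018378 had 992 positions, where ND2 minus 49 would give 990, and stood at 3139, 2471 and 2445 cRPKM in pools a, b and c. Both of these were highest in pool a, as was a gene of 66 positions at 3660, 3192 and 2855 cRPKM in pools a, b and c. The remaining 2 of the 5 longer neighbours were highest in pool b. ENSGALG00000018384, with 1572 positions, stood at 1921, 1982 and 1602 cRPKM in pools a, b and c. ENSGALG00000018386 had 927 positions, the listed length of a mitochondrial rRNA minus 49, and stood at 1636, 1700 and 1491 cRPKM in these pools.

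Leaving out 27 consecutive identifier numbers that hold the 9 genes, 167 genes with at least 500 cRPKM and 100 positions remained. They were ranked by how closely their deviations over the 3 pools followed the median of the 9 genes. The numbers left out end before ENSGALG00000018384 and ENSGALG00000018386, so these neighbours stayed in the ranking. The closest was ENSGALG00000026897, at 3228, 2634 and 2569 cRPKM in pools a, b and c, with a Euclidean distance of 0.055 on the log2 scale. The next was ENSGALG00000027172, at 2236, 1877 and 1827 cRPKM, with a distance of 0.057. Both are short, with 101 positions each. After them came ENSGALG00000021717, at 3027, 2684 and 2519 cRPKM, with a distance of 0.069. It had 116 positions, the listed length of ATP8 minus 49, though its name is not paired with it in the sources used here. A likeness over 3 pools describes these libraries only.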

How the data were processed

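For each of the 3 libraries the authors deposited a headerless table of identifiers, cRPKM values and counts. These deposited counts are whole reads per gene, not normalized. The deposited cRPKM is an RPKM corrected by the authors, and its unit comes from the file names. Bowtie is the only tool in the submitters' processing notes; for its version, the genome build, annotation, strand and treatment of shared reads, the sources used here give nothing. Of 16958 identifiers, 300 held no value. Effective lengths came out whole (within 0.1) for 1033 of the 1033 genes whose rounding leaves under 0.05 positions of doubt.

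The members, lists, thresholds and comparisons were chosen with earlier results of these data known. Every one of the 9 genes is named, and the 3 genes nearest in pattern are printed in order of distance. With 1 group no test was made. Pool ratios used the sum of counts; alternatives used TMM (edgeR 4.0.16) and DESeq2 1.42.0 size factors in R 4.3.3, checked on simulated counts. The rest was computed in Python 3.11.15 with scipy 1.17.1, pandas 2.3.3, numpy 2.4.6 and matplotlib 3.10.9. Counted reads, summed over the listed genes, were 135502157 to 140187132 a pool. Intervals are exact (Clopper-Pearson) at 95%. Sequences were not used here.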

Additional observations from a re-analysis of the deposited data

How the results depend on the processing

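All 9 genes were highest in pool a under TMM scaling, under DESeq2 size factors and with a small margin demanded over the next pool, and 26.6% of genes were highest there with no filter on low values. The ratio of pool a to pool c of the summed reads, 1.282, was 1.312 with TMM, 1.309 with DESeq2 size factors, 1.288 with the 9 genes left out of the library sum, 1.246 as the median of the 9 ratios and 1.263 without COX1. The ratio of pool a to pool b, 1.185, was 1.2002 with TMM, 1.198 with DESeq2, 1.190 with the 9 genes left out, 1.193 as the median and 1.181 without COX1. The settings use the same reads, so counting error is no measure of these shifts. All of these ratios stayed above 1. The share of reads, 2.07%, was 3.22% as a share of summed cRPKM and 1.37% without COX1, by construction, and 1.93% to 2.19% with a pool left out, lowest without pool a. The ratio of complex IV to complex I, 1.93, was 2.26 from medians, 2.30 from means of log2(cRPKM + 1) and 2.30 of log2(cRPKM + 0.1), 1.40 without COX1, 1.54 without ND3, and 1.871 to 1.963 with a pool left out. Complex IV stood higher in each of these settings, but COX1 and ND3, on which the ratio rests, were not left out together. No paired analysis was possible because there is 1 group. Among the genes described singly, depth was lowest for the short neighbouring genes, some with fewer than 100 reads. The share of 26.6% has no filter on low values, so it includes genes with few reads too.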
